A study of Bos taurus with 20 samples.

Results

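The miRNAs known for their abundance in muscle were followed in the spermatozoa of bulls of high and low fertility. They are 7 mature bovine miRNAs chosen by name from the 1029 in the table: bta-miR-143 and bta-miR-145 for smooth muscle, and bta-miR-1, bta-miR-133a, bta-miR-133b, bta-miR-206 and bta-miR-499 for striated muscle. Small RNA was sequenced from 20 Holstein-Friesian bulls, of which 10 were of high fertility (HF) and 10 of low fertility (LF), with 1 library per bull. Bulls were placed in a group by an adjusted score of field fertility. For each bull, frozen-thawed straws from several ejaculates were combined, and the pool was treated with a buffer that lyses somatic cells before RNA was extracted, so a value is an average over ejaculates and carries no spread within a bull. All bulls were mature, neither the labels nor the study's methods name an agent or allele for either group, and libraries are named here by group and bull number, such as HF2.

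The miRNAs of this set are textbook markers of contractile tissue. miR-143 and miR-145 are made from 1 precursor transcript and are most abundant in smooth muscle and other mesenchymal cells, where they help to keep the contractile state. miR-1 and miR-133 are made in heart and skeletal muscle and miR-206 in skeletal muscle, mostly from shared precursors. miR-499 lies within a myosin heavy chain gene and is made with it. A mature miRNA is loaded into an Argonaute protein and lowers the stability or translation of mRNAs that match its seed, the bases near its 5′ end. miR-1 shares its seed with miR-206, and miR-133a shares its seed with miR-133b. In the ARS-UCD2.0 annotation, MIR143 and MIR145 are neighbours, MIR1-1 and MIR1-2 each lie beside a copy of MIR133A, MIR206 lies beside MIR133B, and MIR499 lies inside MYH7B.

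The deposited values are normalized counts, on the CPM scale (counts divided by library size) with a further factor for library composition (TMM, trimmed mean of M-values). Each read covers a whole mature miRNA, so that values of different miRNAs need no division by length, although adapters join some miRNAs better than others. HF libraries held 103203 to 3097585 recovered reads (median 1092883), and LF libraries held 310183 to 1640174 (median 1085747). A count of 3 reads is worth a normalized count of 1.19 in HF2, the deepest library, and of 27.6 in HF17, the shallowest. HF17, LF11 and LF13 had fewer than 500000 reads. miR-34 and miR-449 miRNAs, which are abundant in male germ cells, were counted for 6 of 6 names, with a summed normalized count of 32093 to 77205 in HF and 25832 to 54584 in LF, led by bta-miR-34c.

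Muscle miRNAs were counted in every library, but at very different levels. Together the 7 made up 0.105% ± 0.063 (SD, n = 20 bulls) of the normalized counts, from 0.054% in HF17 to 0.292% in LF4. miR-499 had the highest mean normalized count, 527 ± 113 (SD, n = 20 bulls), which ranked 87 of 1029. miR-143 followed with 439 ± 543 at rank 92. miR-1 had 60.6 ± 30.0 at rank 186. The other 4 had means under 10, namely 7.31 ± 6.41 for miR-133a, 3.59 ± 6.00 for miR-145, 3.03 ± 2.92 for miR-206 and 0.279 ± 0.504 for miR-133b. A read of miR-143, miR-1 and miR-499 was present in 20 of 20 libraries, of miR-133a in 18, of miR-206 in 16, of miR-145 in 12 and of miR-133b in 6.

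**Figure D1:**
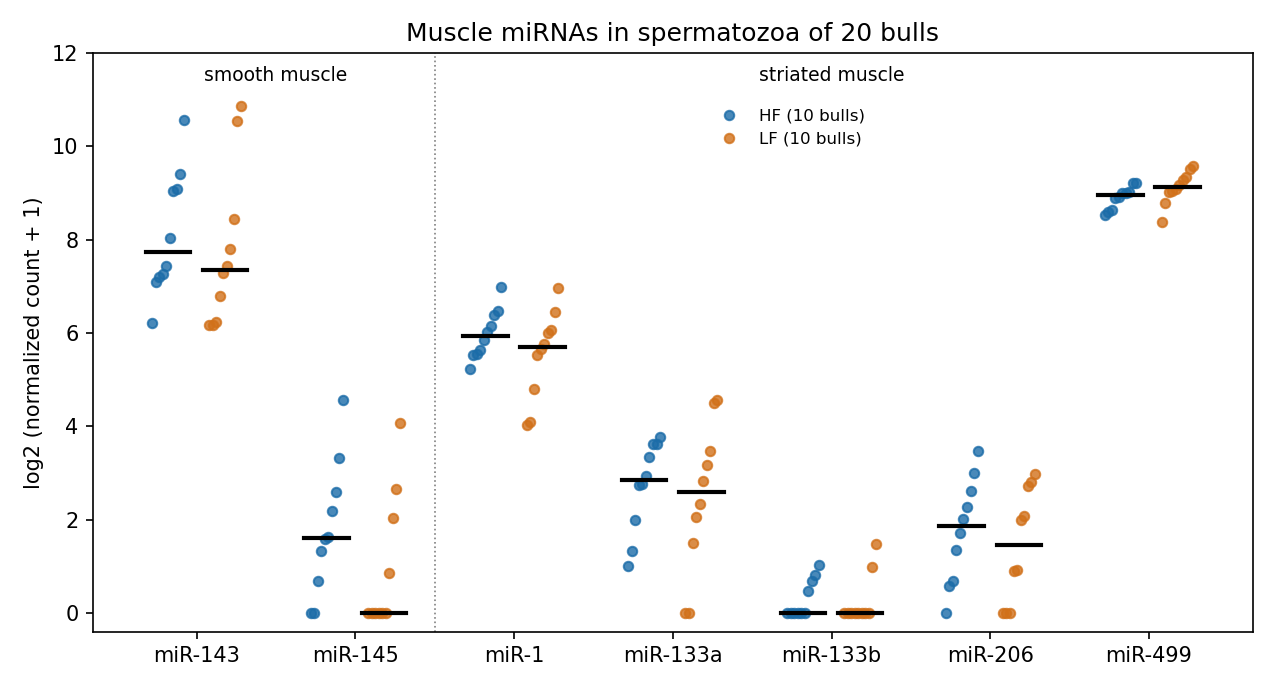
Normalized counts of the 7 muscle miRNAs on a log2 scale (log2 of the count + 1, so that 0 means no read), with 1 point per bull and a black line at the median of each group of 10 bulls. miR-499 lies in a narrow band while miR-143 spreads from 71.6 to 1872, and HF and LF points overlap for each of the 7.

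The order was set by these means, so the differences between its neighbours within bulls are a description and carry no test. miR-499 was above miR-143 in 13 of 20 bulls, by 1.06 ± 1.56 on the log2 scale (SD), a difference smaller than its spread. miR-143 was above miR-499 in the other 7, HF2, HF3, HF14, HF15, LF4, LF5 and LF13. miR-143 was above miR-1 in 19 of 20 bulls, by 2.19 ± 1.40, and miR-1 was above miR-133a in 19 of 20 bulls, by 3.18 ± 1.25. miR-133a was above miR-145 in 14 bulls, tied in 3 and below it in 3, by 1.21 ± 1.39 on average. The levels of miR-145 and miR-206 did not separate, with miR-145 higher in 6 bulls, tied in 4 and lower in 10. miR-206 was above miR-133b in 15 bulls and tied in 5.

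miR-143, the abundant partner of the smooth muscle pair, varied more between bulls than nearly any other miRNA of its level. Its normalized count ran from 73.5 to 1516 in HF (median 216) and from 71.6 to 1872 in LF (median 164). LF4, HF15 and LF5 were far above the rest, at 1872, 1516 and 1490, while the fourth bull, HF3, had 677. The groups overlapped over almost their whole range, and 7 of the 20 bulls were above 300. The highest value, in LF4 (1889 reads), was 26.2 times the lowest, in LF18 (58 reads). Reads of miR-143 ran from 8 in HF17 to 2496 in LF5. The SD of log2(normalized count + 1) over the 20 bulls was 1.51, which ranked 8 of the 435 miRNAs that passed the filter on low values (median SD 0.70) and 2 of the 195 with a mean of at least 50 (median SD 0.46). Within groups it was 1.34 in HF and 1.72 in LF, so the spread was present in both.

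The mean of miR-143 was 420 ± 438 in HF and 459 ± 656 in LF (SD, n = 10 bulls each). On the log2 scale HF was higher by 0.36 ± 0.60 (SE), with a 95% interval from -0.88 to 1.60 (limma, unadjusted p = 0.56, adjusted p = 0.96). The direction turned with the test. The count tests gave -0.12 by edgeR's quasi-likelihood test and -0.16 by DESeq2. No direction between HF and LF can be given for miR-143 from these bulls.

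miR-145, the rare partner, was close to the limit of detection. Its normalized count ran from 0 to 22.8 in HF (median 2.06) and from 0 to 15.9 in LF (median 0), with at least 1 read in 8 of 10 HF and 4 of 10 LF libraries. All 20 libraries held 89 reads of it in all, against 10770 of miR-143, or 121 reads of miR-143 per read of miR-145. Reads of miR-145 made up 0.820% of the reads of the pair (exact Clopper-Pearson 95% interval 0.659% to 1.01%, which covers counting error only). All 8 libraries with over 300 reads of miR-143 held a read of miR-145, against 4 of the other 12. In the 8 libraries without a read of miR-145, miR-143 had 8 to 246 reads, and the pooled share would give at most 2.02 reads of miR-145. A lower share was thus not detectable in them at this depth. HF14 stood apart, with 30 reads of miR-145 beside 715 of miR-143. Its share was 4.03% (2.73% to 5.70%), while the other 19 libraries pooled gave 0.583% (0.444% to 0.752%). miR-145 reached a normalized count of 1 in 10 bulls and so did not pass the filter.

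**Figure D2:**
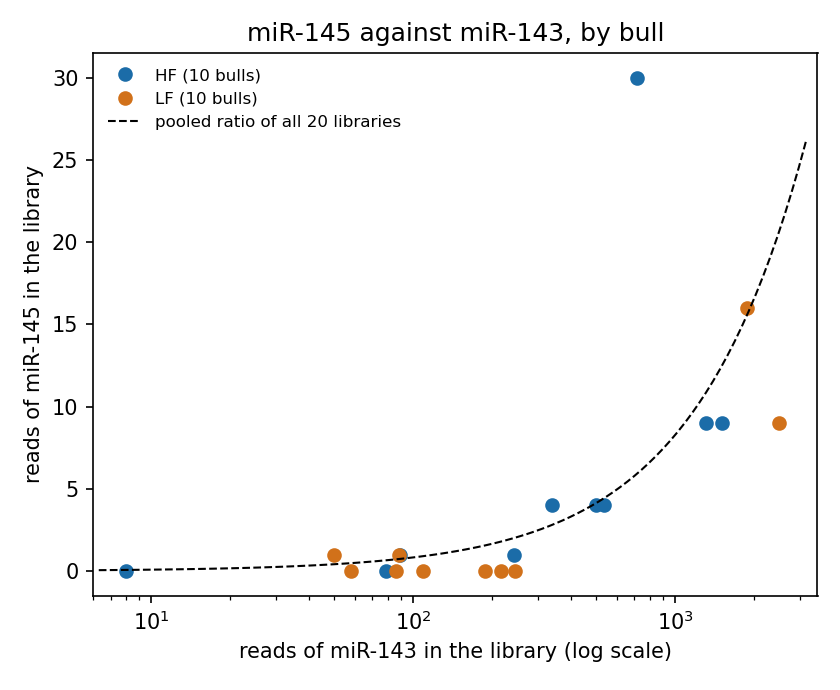
Reads of miR-145 against reads of miR-143 in each library, with the horizontal axis on a log scale and a dashed line at the pooled ratio of 121 reads of miR-143 per read of miR-145. HF14, with 30 reads of miR-145, lies above the line, and libraries with few reads of miR-143 lie at 0 to 1 read of miR-145.

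miR-499 varied least of the 5 that passed the filter. Its normalized count ran from 366 to 594 in HF (median 497) and from 331 to 765 in LF (median 557), and the highest bull had 2.31 times the lowest. Libraries held 43 to 1175 reads of it. Its log2 SD was 0.32, which ranked 401 of 435 and 163 of the 195 with a mean of at least 50, against ranks 8 and 2 for miR-143. miR-499 alone gave 86.7% of the reads of the 5 striated muscle miRNAs. Of the 10 LF bulls, 8 were above the HF median and 4 were above the highest HF bull, but the lowest bull, LF13, was also in LF. The mean was 484 ± 80.4 in HF and 569 ± 129 in LF (SD, n = 10 bulls each). The log2 fold change of HF over LF was -0.22 ± 0.15 (SE, limma, unadjusted p = 0.17, adjusted p = 0.94). Its 95% interval, from -0.53 to 0.10, lay inside a 1.5-fold change in either direction. It reached past 1.5-fold with CPM without a TMM factor (to -0.60), in libraries of at least 500000 reads (to -0.60) and without LF13 (to -0.59), so the limit does not hold in each fit. The count tests kept the sign.

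**Figure D3:**
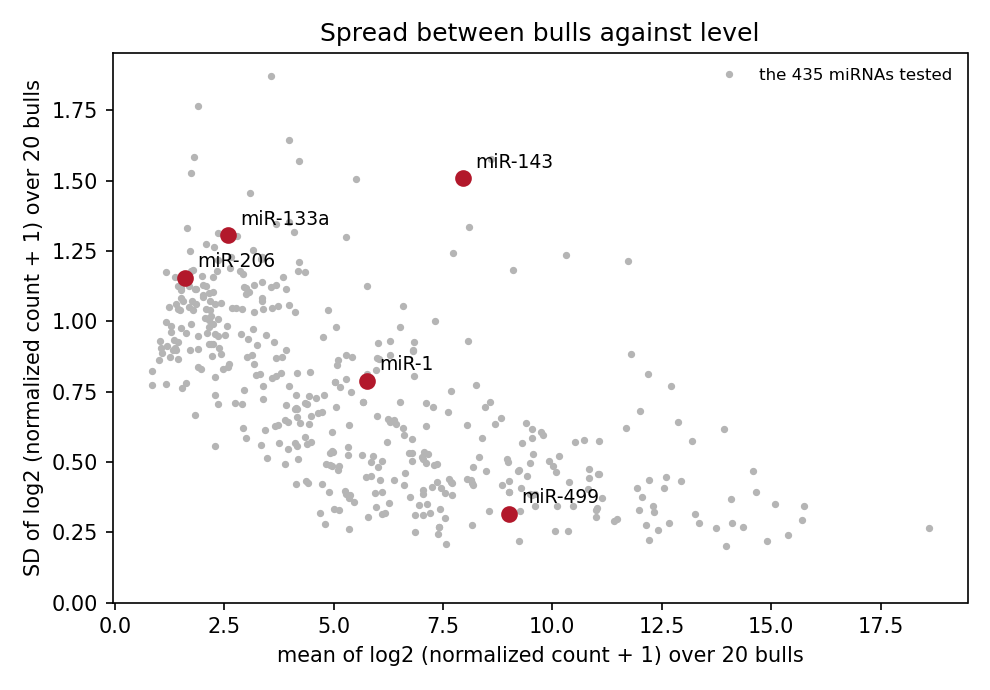
SD of log2(normalized count + 1) over the 20 bulls against its mean, for the 435 miRNAs that passed the filter on low values (grey), with the 5 muscle miRNAs among them in red. miR-143 (SD 1.51) and miR-499 (SD 0.32) are the 2 most abundant of the 5 and differ most in spread.

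miR-1, the miRNA most typical of heart and skeletal muscle, was counted in each library at a level well below that of miR-499. Its normalized count ran from 36.8 to 127 in HF (median 60.4) and from 15.4 to 124 in LF (median 51.3). The highest bulls, HF2 and LF5, were nearly equal, and the 3 lowest, LF11, LF1 and LF20, were all LF and below every HF bull. The mean was 66.5 ± 26.9 in HF and 54.6 ± 33.1 in LF (SD, n = 10 bulls each). HF was higher by 0.45 ± 0.33 on the log2 scale (SE), with a 95% interval from -0.23 to 1.12 (limma, unadjusted p = 0.18, adjusted p = 0.94). The log2 SD over all bulls, 0.79, ranked 187 of 435. It ranked 27 of the 195 miRNAs with a mean of at least 50, but most of these were more abundant than miR-1 (rank 186 of 1029 by mean). The fewest reads of miR-1 were 4 in HF17 and 5 in LF11.

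miR-133a, which comes from the same precursors as miR-1, had 158 reads in all, or 10.0 reads of miR-1 per read of miR-133a. Its normalized count ran from 1.01 to 12.7 in HF (median 6.21) and from 0 to 22.8 in LF (median 5.12). LF4 (23 reads) and LF11 (7 reads) were the highest and LF1 and LF20 had no read, so that the LF bulls enclosed the HF bulls. In LF11, a shallow library, miR-133a was above miR-1 with 21.6 against 15.4, but this rests on 7 reads against 5. The log2 fold change was 0.27 ± 0.55 (SE, limma, unadjusted p = 0.63, adjusted p = 0.96), and its sign turned in the count tests (-0.19 by DESeq2). Without LF1 or without LF20 it was -0.0019. The mature miR-133 forms are nearly alike in sequence, so reads could be split between them and their separate levels are uncertain.

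The log2 ratio of miR-1 to miR-133a within a library, taken on reads + 1, needs no scaling between libraries. Where reads are few, the added 1 makes it depend on depth. The ratio was 3.23 ± 1.01 in HF and 3.11 ± 1.61 in LF (SD, n = 10 bulls each), a difference of 0.12 (two-sided permutation test, 100000 resamples, p = 0.85). Of 5 ratios between miRNAs that share a precursor or a seed, it was the only one with both members counted in at least 18 of 20 libraries, and the other 4 were not tested. The sign of this difference turned without HF10 (-0.062), without LF4 (-0.054) and without LF11 (-0.27).

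miR-206, which is typical of skeletal muscle and shares its seed with miR-1, had 73 reads in all, or 21.7 reads of miR-1 per read of miR-206. Its normalized count ran from 0 to 10.1 in HF (median 2.67) and from 0 to 6.94 in LF (median 1.96), with a read in 9 of 10 HF and 7 of 10 LF libraries. HF3, with 8 reads, was above LF4, the highest LF bull, with 7 reads. HF15 also had 7 reads and was nearly equal to LF4 (7.00 against 6.94), and the groups otherwise overlapped. HF was higher by 0.33 ± 0.50 on the log2 scale (SE, limma, unadjusted p = 0.52, adjusted p = 0.96). miR-133b, its neighbour in the genome, had 9 reads in all, at most 3 in a library, in 4 HF and 2 LF libraries, and did not pass the filter. bta-miR-133c, the remaining miR-133 of the table, was at 0 in all libraries, which allows at most 3 reads in each, for counting error only.

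Of the 7 muscle miRNAs, 5 passed the filter, and 0 of the 5 were called different between HF and LF, where a call needed a fold change over 1.5 and p under 0.05 before adjustment. Over all 435 miRNAs tested, 9 were called (2.07%), 4 of them upregulated in HF and 5 downregulated, and 0 (0%) had an adjusted p-value under 0.05. By limma, 0 of the 5 had an unadjusted p-value under 0.05, against 15 of all 435. On the recovered reads, edgeR's quasi-likelihood test, its likelihood ratio test and DESeq2 each called 0 of the 5 as well. Over all 435 they called 13, 12 and 11. With so few called, 0 of 5 does not set the muscle miRNAs apart from the rest. By limma 4 of the 5 had a higher mean log2 value in HF, against 218 of all 435, and the count tests left 2 of the 5 higher. The median log2 fold change was 0.33 for the 5 and 0.01 for the 435. Except for miR-499, the 95% intervals of the main fit reached beyond a 1.5-fold change, so a difference of that size could have been missed. The interval of miR-499 did so in 2 of 7 other limma settings and without LF13.

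**Figure D4:**
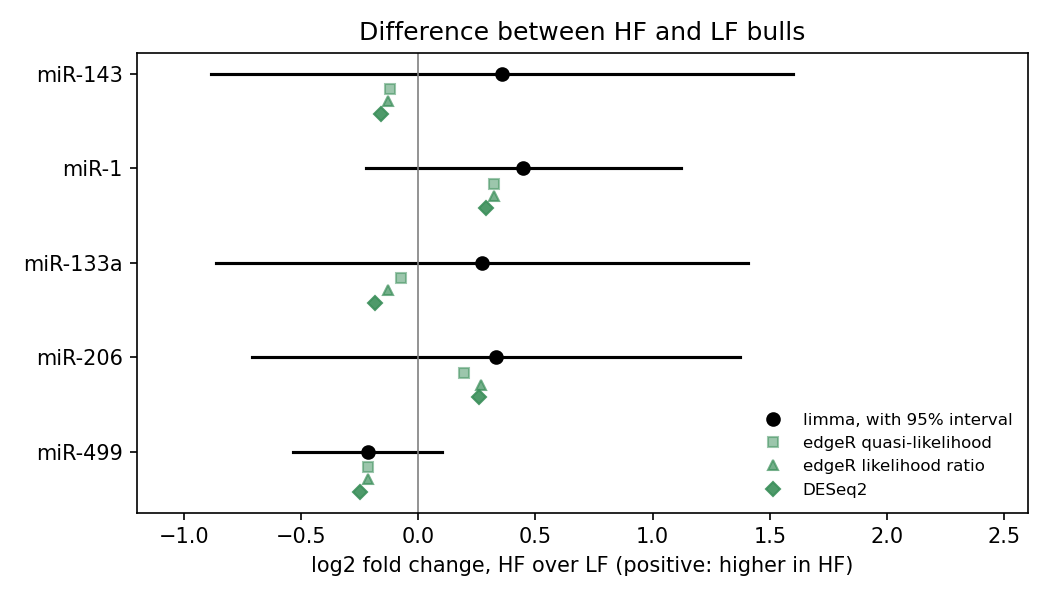
Log2 fold change of HF over LF for the 5 muscle miRNAs that passed the filter, as the limma estimate with its 95% interval (black) and as the estimates of 3 count tests (green). Each interval spans 0, and the count tests place miR-143 and miR-133a on the other side of 0.

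A list of 20 other names associated with muscle matched 25 rows of the table, of which 19 passed the filter. Of these 19, 0 were called by limma (against 2.07% of all tested), with a median log2 fold change of -0.01. The most abundant were miRNAs of many tissues, namely bta-miR-21-5p at a mean of 54410, bta-miR-27a-3p at 26518 and bta-miR-22-3p at 17938. A single one, bta-miR-486, which is also abundant in red blood cells, had an unadjusted p-value under 0.05 (limma, log2 fold change 0.57 ± 0.27 SE, unadjusted p = 0.044, adjusted p = 0.94), and it is named for that value.

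The spread of miR-143 between bulls went with that of miRNAs known from stroma and blood vessels. Over the 434 other miRNAs that passed the filter, the 3 whose log2 values were most like those of miR-143 across the 20 bulls were bta-miR-199a-5p (Pearson r = 0.93), bta-miR-199b (0.88) and bta-miR-126-3p (0.86), while the median r of all others was 0.04. miR-199 miRNAs are abundant in mesenchymal cells, and miR-126 is made from an intron of the endothelial gene EGFL7. LF4, HF15 and LF5 had the most of each. They had 62.0 to 101 of miR-199a-5p against at most 52.9 in the other bulls, and 172 to 250 of miR-126-3p against at most 112. The miR-199 forms share sequence, and the values of bta-miR-199a-3p and bta-miR-199c were equal in 19 of 20 libraries, so that these 2 rows cannot be told apart. miR-145 had r = 0.79 with miR-143, with 8 bulls at no read. These values were picked as the highest, share libraries and depth, and carry no test.

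**Figure D5:**
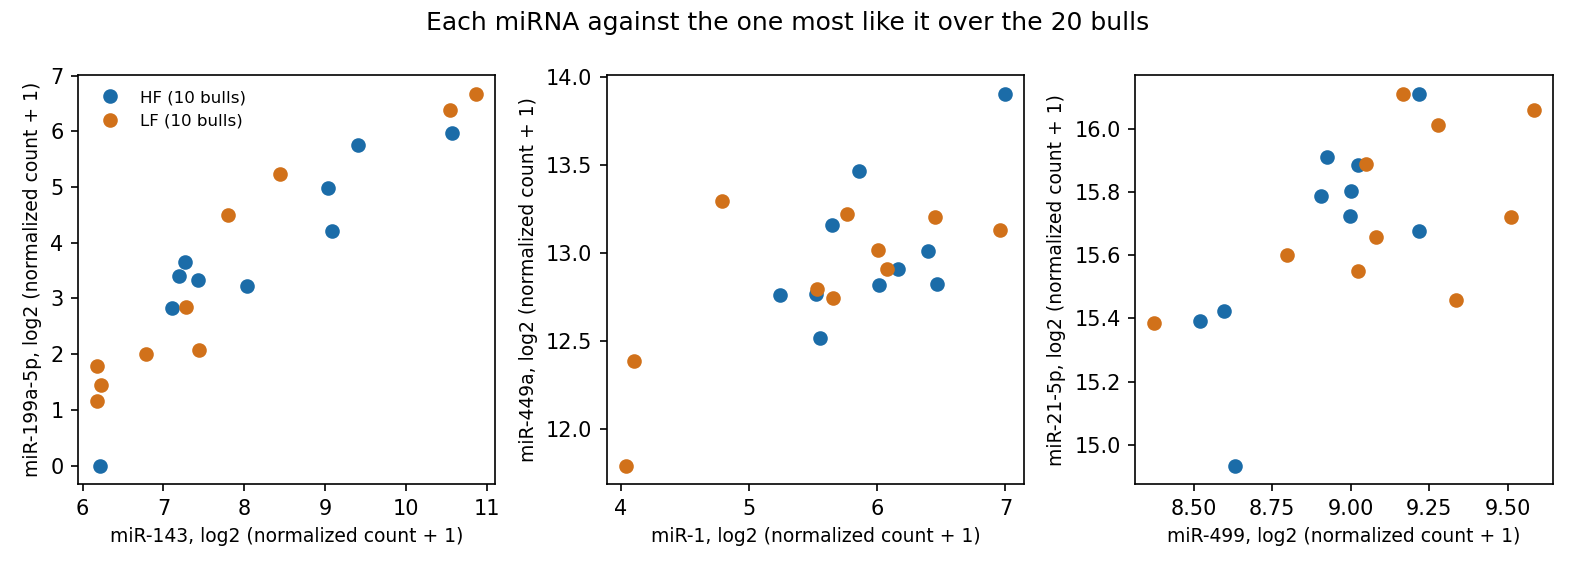
Each of the 3 muscle miRNAs that were counted in every library against the miRNA most like it over the 20 bulls, as log2(normalized count + 1), with 1 point per bull. miR-143 and miR-199a-5p rise together in HF and LF (r = 0.93), while the relations of miR-1 with miR-449a (0.68) and of miR-499 with miR-21-5p (0.63) are looser.

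Members were also set against the sums of marker lists, in a family of 14 relations with Benjamini-Hochberg adjustment and two-sided permutation tests of 100000 resamples. The lists hold miRNAs already named as most like a member in the same bulls, so these relations are not independent of that ranking. The list for endothelium and stroma (5 names, 7 rows, none at 0 in all libraries, led by bta-miR-199a-3p) had a summed normalized count of 91.9 to 596 in HF and 173 to 957 in LF. miR-143 correlated with this sum by r = 0.69 (permutation test, p = 0.00064, adjusted p = 0.0090). Spearman's rho was 0.60 (permutation test, p = 0.0065, adjusted p = 0.092), so the rank correlation missed the threshold after adjustment. r was 0.62 without HF15 and LF4, the 2 bulls farthest from the median of miR-143. LF5, which was also far above the rest in miR-143, stayed in, and r without LF5 as well was not taken. r was 0.66 within HF, which holds HF15, and 0.76 within LF, which holds LF4 and LF5. With bta-miR-199c left out of the sum, an alternative chosen after seeing the data, r was 0.82. With bta-miR-199a-5p, bta-miR-199b and bta-miR-126-3p left out as well, the 3 remaining rows gave r = 0.43 (permutation test, unadjusted p = 0.057) and rho = 0.37 (unadjusted p = 0.11), so the relation missed the threshold without the miRNAs most like miR-143. The 6 rows of this list that passed the filter had r with miR-143 from 0.40 to 0.93, with a median of 0.72. By comparison, the 7 epithelial rows had r from -0.17 to 0.19 and the 6 blood rows from -0.20 to 0.34. The 5 germ cell rows had r from 0.04 to 0.42. The stromal and germ cell ranges thus overlapped, with bta-miR-199a-3p at 0.40 and bta-miR-449b at 0.42.

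In bulk libraries, more cells of a type and more RNA per cell cannot be told apart, and whether other cells had a part in the spread of miR-143 was not tested. By RT-PCR the study detected no PTPRC, CDH1 or KIT, its markers of leucocytes, epithelial cells and germ cells. It named no such marker for stroma, endothelium or smooth muscle. Blood markers (6 names, 7 rows, none at 0 in all libraries, led by bta-miR-142-5p) summed to 98.1 to 277 in HF and 80.2 to 316 in LF, and epithelial markers (7 names, 7 rows, none at 0 in all libraries, led by bta-miR-375) to 17050 to 24349 in HF and 17693 to 27773 in LF. With neither sum did the correlation of miR-143 pass the threshold (r = 0.24 and -0.17, permutation test, adjusted p = 0.53 and 0.63; rho = 0.21 and -0.24, permutation test, adjusted p = 0.58 and 0.55), nor with the germ cell sum (r = 0.11, permutation test, adjusted p = 0.76; rho = 0.13, adjusted p = 0.74). None of the marker rows that passed the filter was called between HF and LF by limma, against 2.07% of all tested. Of the 7 epithelial rows 6 had lower log2 values in HF, with a median log2 fold change of -0.39, while bta-miR-375 was higher (0.17). Over all 435 tested, 218 were higher in HF. Among these rows, bta-miR-429 (-0.47, unadjusted p = 0.014) and bta-miR-200a (-0.28, unadjusted p = 0.040) are named for p under 0.05 before adjustment by limma (adjusted p = 0.94 for both). Of all 435, 15 had such a p-value.

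The miRNAs most like miR-1 over the bulls included those of germ cells. The 3 nearest were bta-miR-449a (r = 0.68), bta-miR-449b (0.64) and bta-miR-196b (0.63), against a median of 0.07 over all others. The 5 germ cell rows that passed the filter had r from 0.51 to 0.68, at ranks 1, 2, 5, 13 and 17 of 434. With the summed germ cell markers r was 0.64 (permutation test, p = 0.0023, adjusted p = 0.016) and rho was 0.47 (permutation test, p = 0.037, adjusted p = 0.26). Without LF1 and LF11, the 2 bulls farthest from the median of miR-1, r was 0.37, so the size of the relation over all bulls depends on them. Within HF, which holds neither of these bulls, r was 0.61. HF2 had the most miR-1, miR-449a and miR-34c of all bulls (127, 15330 and 58035). r within HF was not taken without HF2. Within LF, which holds both LF1 and LF11, r was 0.64. Of the 5 members tested, miR-1 had the highest correlation with depth (r = 0.47 with log2 of the recovered reads, permutation test, p = 0.040, adjusted p = 0.20 over 5 members; rho = 0.45, adjusted p = 0.24; r = 0.31 without HF17 and LF11).

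miR-1 and miR-133a, which share precursors, did not pass the threshold for moving together over all 20 bulls. They had r = 0.37 (permutation test, adjusted p = 0.29) and rho = 0.38 (adjusted p = 0.29), with r = 0.57 without LF1 and LF11, 0.50 within HF and 0.32 within LF. In the 17 libraries of at least 500000 reads their r was 0.75 (permutation test, unadjusted p = 0.00044). The cause of the difference between these values was not tested. miR-143 and miR-1 had r = 0.40 (permutation test, adjusted p = 0.28) and rho = 0.38 (adjusted p = 0.29), with r = 0.44 without HF15 and LF4, 0.38 within HF and 0.39 within LF. For miR-133a none of the 4 marker sums passed the threshold (r from -0.28 to -0.01, permutation test, adjusted p from 0.445 to 0.98).

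The miRNAs most like miR-499 were bta-miR-21-5p (r = 0.63), bta-miR-2336 (0.62) and bta-let-7a-3p (0.62), against a median of 0.06 over all others. The 7 epithelial rows had r with miR-499 from 0.21 to 0.61, the 5 germ cell rows from -0.44 to -0.22, the 6 blood rows from -0.67 to 0.10 and the 6 stromal rows from -0.18 to 0.35. Across bulls its log2 values had r = -0.05 with miR-143 and r = -0.04 with miR-1. In LF4, HF15 and LF5, the bulls rich in miR-143, miR-499 was 728, 485 and 528, inside the range of the other bulls.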

How the data were processed

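Small RNA libraries of 20 bulls (10 HF, 10 LF, 1 per bull) were grouped by the deposited labels. The authors trimmed the reads with Cutadapt, kept a window of lengths, filtered out rRNA, tRNA and similar RNAs, mapped to ARS-UCD1.2 with Bowtie and counted mature miRBase miRNAs with miRDeep2. The deposited values are a signal per miRNA and library, made by the authors as counts per library size (CPM) divided by a TMM factor, although the table is described as counts. For this reason limma was used as the main test, and count tests as alternatives.

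The commonest low value of a library was taken as 1 read. Of the values above 0, 95.0% came out as whole reads (tolerance 0.01), and 0 of the 7 muscle miRNAs had a value that did not. Recovered reads ranged from 103203 to 3097585 per library. Depth limits the rare miRNAs, and a count of 3 reads was taken as the floor.

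miRNAs under a normalized count of 1 in at least 10 bulls were removed, which left 435. HF was compared with LF by limma (3.58.1, variance trend, R 4.3.3) on log2(normalized count + 1), with no covariate and Benjamini-Hochberg adjustment over the miRNAs tested. A fold change on this scale understates that of rare miRNAs. Recovered reads, rounded to whole numbers, were tested with edgeR (4.0.16) and DESeq2 (1.42.0). Single values were compared by permutation of 100000 resamples, two-sided (scipy 1.17.1). The tests were tested on simulated data. Alternatives covered the pseudocount, filter, scaling, test and each bull, and a few were chosen after seeing the data (count tests without the filter, and the stromal list without bta-miR-199c or also without the 3 miRNAs most like miR-143).

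The members and lists were chosen with earlier results of these data known. Named are the 7 miRNAs, other rows of their families, the 3 most alike for each member counted in every library, the 3 most abundant other muscle miRNAs, and the leading marker of each list. Marker lists were miR-34 and miR-449 (male germ cell), miR-451, miR-144, miR-486, miR-142, miR-223 and miR-150 (blood), miR-126, miR-199 and miR-214 (endothelium and stroma) and miR-200, miR-141, miR-429, miR-205 and miR-375 (epithelium). The ARS-UCD2.0 annotation was used for neighbouring genes only. Mature sequences, mRNA libraries, RT-qPCR and fertility scores of single bulls were not analysed here.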

Additional observations from a re-analysis of the deposited data

Results flagged for a closer look

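In each group of 10 bulls, the highest and the lowest value of each muscle miRNA was set against its nearest neighbour, as a share of the group's whole range (Dixon's ratio). Of 14 groups, 3 passed its 95% critical value. Chance flags about 1 in 20 groups of normal values, and these counts are skewed. On the log2 scale 0 of the 14 passed, and the ratios of the 3 were 0.27, 0.27 and 0.34. The normalized count of miR-143 in HF15 was 1516, against 677 in the next HF bull (ratio 0.582). miR-145 in HF14 was 22.8, from 30 reads, against 9.00 in the next HF bull (ratio 0.606). miR-145 in LF4 was 15.9, from 16 reads, against 5.37 in the next LF bull (ratio 0.661). LF4 was also the bull with the most miR-143, while HF14 was only the fifth by miR-143.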

How the results depend on the processing

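The count of muscle miRNAs past both thresholds was 0 under each of the 13 other settings and without each of the 20 bulls in turn. Over all miRNAs tested, these settings called from 0 (of 158) to 36 (of 731), and fits without a bull from 7 (of 446) to 15 (of 442). The log2 fold change of HF over LF kept its sign under every alternative tried for miR-1, miR-206 and miR-499. For miR-143 it turned from 0.36 to -0.12 (edgeR's quasi-likelihood test), -0.13 (likelihood ratio test) and -0.16 (DESeq2), and was -0.13, -0.14 and -0.16 in these tests without the filter. For miR-133a it turned from 0.27 to -0.076, -0.13 and -0.19, and to -0.11, -0.15 and -0.19 without the filter. Leaving out a bull gave -0.0019 to 0.51 for miR-133a and -0.30 to -0.16 for miR-499. For miR-499 the unadjusted p by limma was 0.044 without LF13 and up to 0.30 without another bull. It was under 0.05 in 1 of these 20 fits. Under the 13 other settings, which leave out no single bull, it was 0.060 to 0.21 by the test of each setting. The log2 ratio of miR-1 to miR-133a differed by 0.12 between HF and LF, by -0.0061 with a pseudocount of 0.5 and by 0.30 with 5. The difference was -0.0039 in libraries of at least 500000 reads, and -0.27 to 0.34 without single bulls. The correlation of miR-143 with the stromal sum was 0.69, and 0.43 without bta-miR-199c and the 3 miRNAs most like miR-143. Correlations near 0 turned as well. That of miR-1 with the epithelial sum was -0.11 in the deep libraries. That of miR-133a with the germ cell sum was 0.071 by CPM and 0.19 in the deep libraries, and with the stromal sum 0.042 by CPM, 0.018 with a pseudocount of 5 and 0.25 in the deep libraries. The cause was not tested. miR-133b could be tested only without the filter, at unadjusted p-values of 0.80 to 0.99. miR-145 could be tested without the filter, in the deep libraries or with one of some bulls left out, with a log2 fold change of 0.72 to 1.04 and unadjusted p-values of 0.10 to 0.35. All 7 mean levels moved by less than 1 SD with CPM or deep libraries.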

Other observations

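The cardiac miRNAs of the miR-208 family were the other striated muscle miRNAs near the limit of detection. bta-miR-208a had a read in 3 of 20 libraries. bta-miR-208b had 13 reads in 6 of 10 LF libraries (1 to 4 reads each) and 1 read in 1 of 10 HF libraries, which is a rate in LF 17.2 times that in HF (exact 95% interval 2.58 to 731, for counting error only). It did not pass the filter and was singled out after its values were seen. Among the 731 miRNAs with a read, its unadjusted p was 0.0065 by limma (adjusted p = 0.91) and 0.00047 by edgeR's quasi-likelihood test (adjusted p = 0.22), so it did not hold after adjustment.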
